A study of Mus musculus with 9 samples.

Results

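Mitochondrial ribosomal proteins are the nuclear-encoded proteins of the ribosome inside mitochondria, and this account follows their mRNAs in the livers of obese diabetic mice. Symbols that begin with Mrpl name the large subunit and those with Mrps the small one. Some Mrps proteins, such as Mrps18a, belong elsewhere. The family was taken as every gene whose symbol begins with Mrpl or Mrps in the array's annotation, without using any measured value. That rule found 78 genes, of which 76 could be tested among 18193 genes in all. The other 2 members, Mrpl30 and Mrpl53, were read only by probe sets that carry several gene symbols and were not analysed here. A probe set is the group of short DNA probes with which the array reads a transcript, and 156 probe sets named a single member of the family.

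The mitochondrial ribosome translates the few messages of mitochondrial DNA, all of which encode membrane subunits of the respiratory chain and ATP synthase. Its RNAs are transcribed from mitochondrial DNA, whereas its proteins are made in the cytosol and imported, so that building it requires gene products of both genomes. Many of its proteins descend from bacterial ribosomal proteins and others exist only in mitochondria. Liver is rich in mitochondria, which oxidise fatty acids there.

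Total RNA of liver from male mice aged 14 weeks was hybridised to 9 Affymetrix arrays. The control group was 5 arrays of the strain C57BL/KSlepr+/+ (BKS), which has intact leptin receptor genes. The other group was 4 arrays of BKS.Cg-Leprdb (db/db) mice, littermates that carry the db mutation of the leptin receptor in every cell and become obese and diabetic with fatty liver on standard chow. The series title names mitochondria, together with peroxisomes, as impaired in these livers. Whether every array stands for its own mouse is not said in the labels. A p-value then sets a group difference only against the variation among the arrays of a group, which may be technical.

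Values are given as log2 of the quantile-normalized signal plus 16, and a difference is db/db minus BKS on that scale. A gene is said to have risen or fallen where limma's adjusted p, by the Benjamini-Hochberg method over all 18193 genes, was under 0.05. The deposited signals had array medians of 67.4 to 110.8, and arrays correlated at 0.919 to 0.967 with each other. The arrays fell into 2 sets by the signal of the control probe sets for 18S ribosomal RNA. BKS 4, BKS 5, db/db 3 and db/db 4 read 426.1 to 19770.7 there, and the other 5 arrays read 6.4 to 43.5. The labels name no batch, and both groups lie in both sets, so each group difference below was also fitted with the 18S set as a second term, called the 18S block. The most brightly read Lepr probe set differed by -0.87 (SE 0.42, limma adjusted p = 0.290 over genes). Its other probe sets differed by 1.17 (SE 0.50), 0.41 and -0.22, and every Lepr value was 7.61 or less. The direction for Lepr thus depended on the probe set. Transcript is still made from the mutated gene, so its level does not check the genotype. Of 8 listed hepatocyte markers 7 were measured, at signals of 10193.6 or more on every array. The 7 Kupffer cell and macrophage markers, none of them at 0, summed to signals of 5671.4 to 15427 in BKS and 3217.6 to 8367.5 in db/db, with a median difference of -0.55. That median was -0.62 within the low 18S arrays and -0.10 within the high ones. None of these 7 markers passed the test without the block, and with it Adgre1 and Cd5l fell. The 4 measured bile duct markers summed to 475.4 to 722.6 in BKS and 219.8 to 554.3 in db/db, with a median difference of -0.77 and no call without the block. Endothelial markers (6, median difference 0.02), stellate cell markers (6, 0.15), lymphocyte markers (5, -0.56) and adipocyte markers (2, -0.26, summed signals of at most 92 on an array) held no called gene without the block. With it, Sox9 of the bile duct list fell, and Pecam1 of the endothelial and Lrat of the stellate cell list rose. The part of other cells in the results below was not tested, and in whole liver fewer cells of a type and less RNA per cell cannot be told apart.

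Of the 76 mitochondrial ribosomal protein genes, Mrpl49 rose and Mrpl44 fell in db/db liver, and the other 74 did not pass the test. Those 2 calls are 2.63% of the members. Over all genes tested 5.49% were called, 2.89% as higher and 2.6% as lower. At an unadjusted p under 0.05 there were 16 members, 13 higher and 3 lower in db/db, which is 21.1% of the family against 17.6% of all genes. The members' share of calls was thus below the background at the adjusted threshold and close to it at the unadjusted one. The arrays of the 2 groups did not overlap for 5 members (Mrpl44, Mrpl23, Mrps27, Mrps11 and Mrps15), or 6.58%, against 9.15% of all genes.

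The differences were small. The median over members was 0.11, an increase of 8.10%, against -0.00 over all genes. Of the members 48 had a higher mean in db/db and 28 a lower one, so that 63.2% were positive against 49.7% of all genes. The extremes were -0.64 for Mrpl44 and 0.78 for Mrpl49. The middle of the family, from the first to the third quartile, ran from -0.09 to 0.22, and that of all genes from -0.29 to 0.28. A difference of under 0.25 in size was seen for 57 members (75%) and for 44.8% of all genes.

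**Figure D1:**
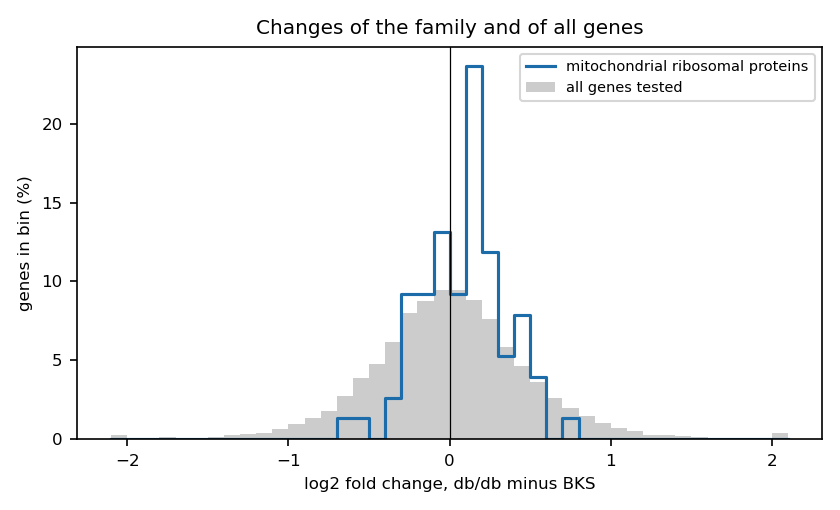
Share of genes (percent, vertical axis) by difference between db/db and BKS liver (log2, horizontal axis) for the 76 mitochondrial ribosomal protein genes and for all 18193 genes tested. The family lies between -0.64 and 0.78 with its median at 0.11, while the distribution of all genes is wider and centred on 0. The outermost grey bars hold all genes beyond a difference of 2 in size.

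The arrays measured the family more precisely than the typical gene. All 76 members had a deposited signal of at least 100 on all 9 arrays, from 443.6 to 11659.3, and 61.1% of all genes reached 100 on at least 4 arrays. The median standard error of a difference was 0.14 for members and 0.32 for all genes. The 95% interval of the difference lay within a 1.5-fold change in either direction for 48 members (63.2%), against 17.6% of all genes. It lay within a 2-fold change for 74 members, the exceptions being Mrpl49 and Mrpl55. These intervals hold for the brightest probe set of each gene, and other probe sets of the same gene can lie outside them, as described further on for Mrps15 and Mrpl15.

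**Figure D2:**
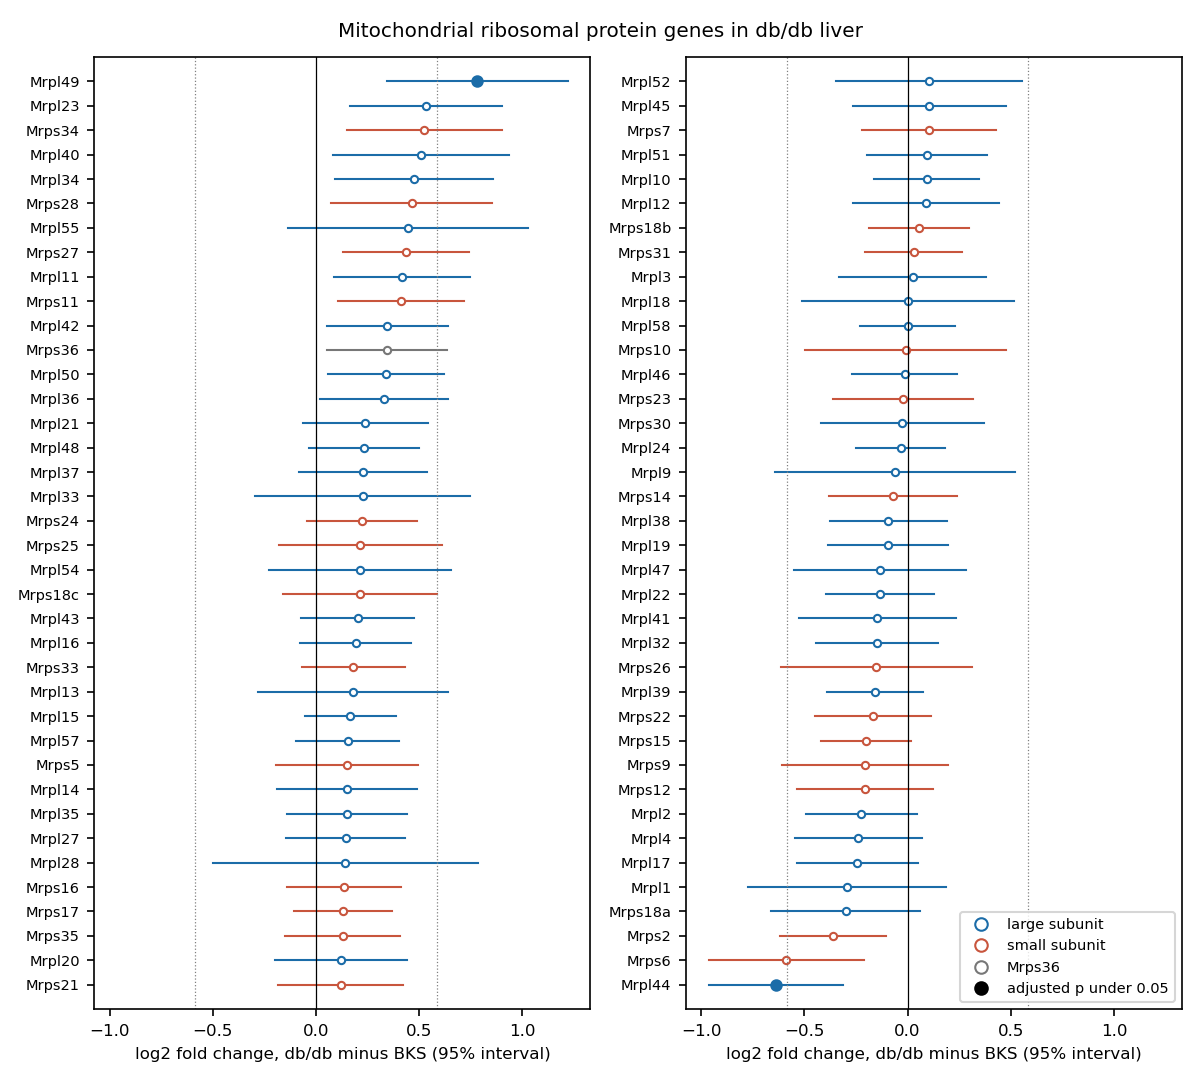
Difference between db/db and BKS liver (log2, horizontal axis) for each of the 76 members, ordered by size, with 95% intervals from limma and colours for the subunit. Mrpl49 (0.78) and Mrpl44 (-0.64) stand at the ends, and most intervals cross 0.

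Mrpl44, a protein of the large subunit with a fold like that of ribonuclease III whose inherited defects cause heart muscle disease, fell. Its log2 values were 12.64, 12.06, 12.11, 12.26 and 11.83 on BKS 1 to 5 and 11.42, 11.77, 11.47 and 11.51 on db/db 1 to 4. Every db/db array was below every BKS array. The means were 12.18 ± 0.30 (SD, n = 5) and 11.54 ± 0.16 (SD, n = 4), a difference of -0.64 (SE 0.15) or 1.56-fold (limma adjusted p = 0.0253). With the 18S block the adjusted p was 0.0150, and the difference was -0.67 within the low 18S arrays and -0.56 within the high ones. The call was lost without BKS 4 (adjusted p = 0.0602), db/db 1 (0.0758), db/db 3 (0.0792) or db/db 4 (0.0649), each with a difference between -0.62 and -0.60. The fall was read by the brightest of 4 Mrpl44 probe sets, 1452144_a_at, and the others, from brighter to dimmer, differed by -0.48, -0.16 and -0.04. The 250 bases before the start of Mrpl44 (RefSeq, GRCm38.p6, chr1:79775768-79776017, plus strand) are shown because this is the only member that fell. They have a GC content of 38.0% and hold none of the 4 motifs described further on.
Mrpl44: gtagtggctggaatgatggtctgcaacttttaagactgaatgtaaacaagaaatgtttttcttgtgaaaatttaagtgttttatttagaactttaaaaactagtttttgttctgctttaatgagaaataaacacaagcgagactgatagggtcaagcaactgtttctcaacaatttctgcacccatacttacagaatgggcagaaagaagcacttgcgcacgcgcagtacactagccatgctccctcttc

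Mrpl49, a large-subunit protein found only in mitochondrial ribosomes, rose. Its log2 values were 9.22, 9.11, 9.05, 9.66 and 9.79 on BKS 1 to 5 and 9.79, 9.99, 10.52 and 10.29 on db/db 1 to 4. The highest BKS array and the lowest db/db array met at the same rounded value, and the other 7 arrays were separated by group. The means were 9.37 ± 0.34 (SD, n = 5) and 10.15 ± 0.32 (SD, n = 4), a difference of 0.78 (SE 0.20) or 1.72-fold (limma adjusted p = 0.0405). Mrpl49 was also higher on the high 18S arrays, by 0.56 (limma adjusted p = 0.0294). With the block the group difference was 0.73 (adjusted p = 0.00286), and it was 0.76 within the low 18S arrays and 0.68 within the high ones. The call was lost without BKS 1 (adjusted p = 0.0879), BKS 2 (0.0807), BKS 3 (0.0972), db/db 2 (0.0656), db/db 3 (0.140) or db/db 4 (0.107), with differences of 0.66 to 0.84. The second Mrpl49 probe set differed by 0.23. The 250 bases before the start of Mrpl49 (chr19:6057756-6058005, minus strand) are shown because it is the only member that rose. Their GC content is 69.6%, and the capitals mark a match to the SP1 motif on the opposite strand, at position -91 from the start.
Mrpl49: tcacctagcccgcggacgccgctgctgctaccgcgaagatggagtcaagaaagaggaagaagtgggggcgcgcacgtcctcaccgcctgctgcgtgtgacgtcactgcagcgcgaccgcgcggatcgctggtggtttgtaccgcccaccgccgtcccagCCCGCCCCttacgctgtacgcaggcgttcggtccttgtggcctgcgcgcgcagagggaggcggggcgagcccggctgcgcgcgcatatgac

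Among the 49 measured large-subunit members 31 were higher and 18 lower in db/db, with a median of 0.10, and Mrpl49 and Mrpl44 were the only calls. The stalk that recruits translation factors was represented by 4 of 5 listed members, all with positive differences of 0.09 to 0.42 and none called. Mrpl11, a protein of the stalk base, read 10.29, 10.89, 10.64, 11.05 and 10.85 in BKS and 11.14, 10.98, 11.28 and 11.23 in db/db. The groups overlapped only through BKS 4 and db/db 2, and the difference was 0.42 (SE 0.15, limma adjusted p = 0.157). Its next brightest probe sets differed by -0.29 and -0.26. Mrpl12, the L7/L12 protein of the stalk, differed by 0.09 (SE 0.16).

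The 6 members at the exit of the polypeptide tunnel went both ways, 2 higher and 4 lower, with a median of -0.08. Mrpl23 had the highest difference of them. Its values were 11.04, 11.80, 11.46, 11.88 and 11.81 in BKS and 12.14, 12.38, 12.08 and 11.92 in db/db, with no overlap. The difference of 0.53 (SE 0.17) had a limma adjusted p of 0.0983. It was 0.83 within the low 18S arrays and 0.16 within the high ones. Mrpl17 had the lowest difference at the exit, -0.24 (SE 0.14), and Mrpl24 differed by -0.03 (SE 0.10). Mrpl45, which anchors the ribosome to the inner membrane, differed by 0.10 (SE 0.17).

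The central protuberance of the large subunit had a median of 0.12 over 6 members. Mrpl40, one of its mitochondria-only proteins, read 10.29, 9.61, 10.24, 10.55 and 10.33 in BKS and 10.45, 10.44, 11.02 and 10.94 in db/db. BKS 4 reached above the lower 2 db/db arrays. The difference was 0.51 (SE 0.20, limma adjusted p = 0.182).

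Other large-subunit members with an unadjusted p under 0.05 were Mrpl34, Mrpl50, Mrpl42 and Mrpl36, all higher in db/db. Mrpl34, a small protein of bacterial ancestry, read 10.33, 10.88, 10.98, 11.15 and 11.23 in BKS and 11.36, 11.39, 11.67 and 11.13 in db/db (difference 0.47, SE 0.18, limma adjusted p = 0.167). Its db/db 4 array fell among the BKS arrays, and its second probe set differed by -0.53. Mrpl50, found only in mitochondrial ribosomes, read 10.21, 10.34, 10.57, 10.40 and 10.64 in BKS and 10.88, 10.61, 10.88 and 10.74 in db/db (difference 0.34, SE 0.13, adjusted p = 0.175). Only BKS 5 and db/db 2 crossed, and its second probe set differed by -0.20. Mrpl42 differed by 0.35 (SE 0.14, adjusted p = 0.190) and passed the test with the 18S block (0.38, adjusted p = 0.0317). Mrpl36 differed by 0.33 (SE 0.14). Mrpl58, a peptidyl-tRNA hydrolase that rescues stalled ribosomes and is also part of the large subunit, had equal means of 11.56 in both groups, with a 95% interval of -0.23 to 0.23.

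None of the 26 small-subunit members passed the test, 16 being higher and 10 lower, with a median of 0.11. Mrps6, a protein of bacterial ancestry, had the lowest difference, -0.59 (SE 0.17, limma adjusted p = 0.0721). It read 10.62, 10.05, 10.31, 10.96 and 10.62 in BKS and 9.87, 9.79, 9.96 and 10.08 in db/db, where only db/db 4 exceeded the lowest BKS array, BKS 2. With the 18S block Mrps6 passed the test (-0.62, adjusted p = 0.0153), and without BKS 2 it also did (-0.71, adjusted p = 0.0233). Its other probe set, 1424440_at, differed by 0.10. Mrps2, another protein of bacterial ancestry, read 11.41, 11.47, 11.52, 11.29 and 11.13 in BKS and 11.14, 10.92, 11.06 and 10.89 in db/db (-0.36, SE 0.12, adjusted p = 0.108). Only BKS 5 and db/db 1 were out of order by group. The second Mrps2 probe set differed by 0.59.

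Mrps27, a mitochondria-only protein with the pentatricopeptide repeats that bind RNA, read 9.37, 9.17, 9.52, 9.48 and 9.53 in BKS and 9.77, 9.88, 9.78 and 9.99 in db/db. Every db/db array was above every BKS array, and the difference was 0.44 (SE 0.14, limma adjusted p = 0.10). Mrps11, of bacterial ancestry, read 9.65, 9.63, 9.57, 9.50 and 9.92 in BKS and 9.93, 10.15, 10.22 and 9.97 in db/db, again with no overlap (0.41, SE 0.14, adjusted p = 0.124). Mrps34, whose inherited defects cause Leigh syndrome, read 11.31, 11.92, 11.15, 11.82 and 11.92 in BKS and 11.90, 12.09, 12.31 and 12.29 in db/db (0.53, SE 0.17, adjusted p = 0.111). BKS 1 and BKS 3 were low, while BKS 2 and BKS 5 reached db/db 1. With the block Mrps34 passed the test (0.49, adjusted p = 0.0492). The head of the small subunit, with 8 members, spanned -0.21 to 0.22, and Mrps12, a protein of the decoding centre, differed by -0.21 (SE 0.15).

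**Figure D3:**
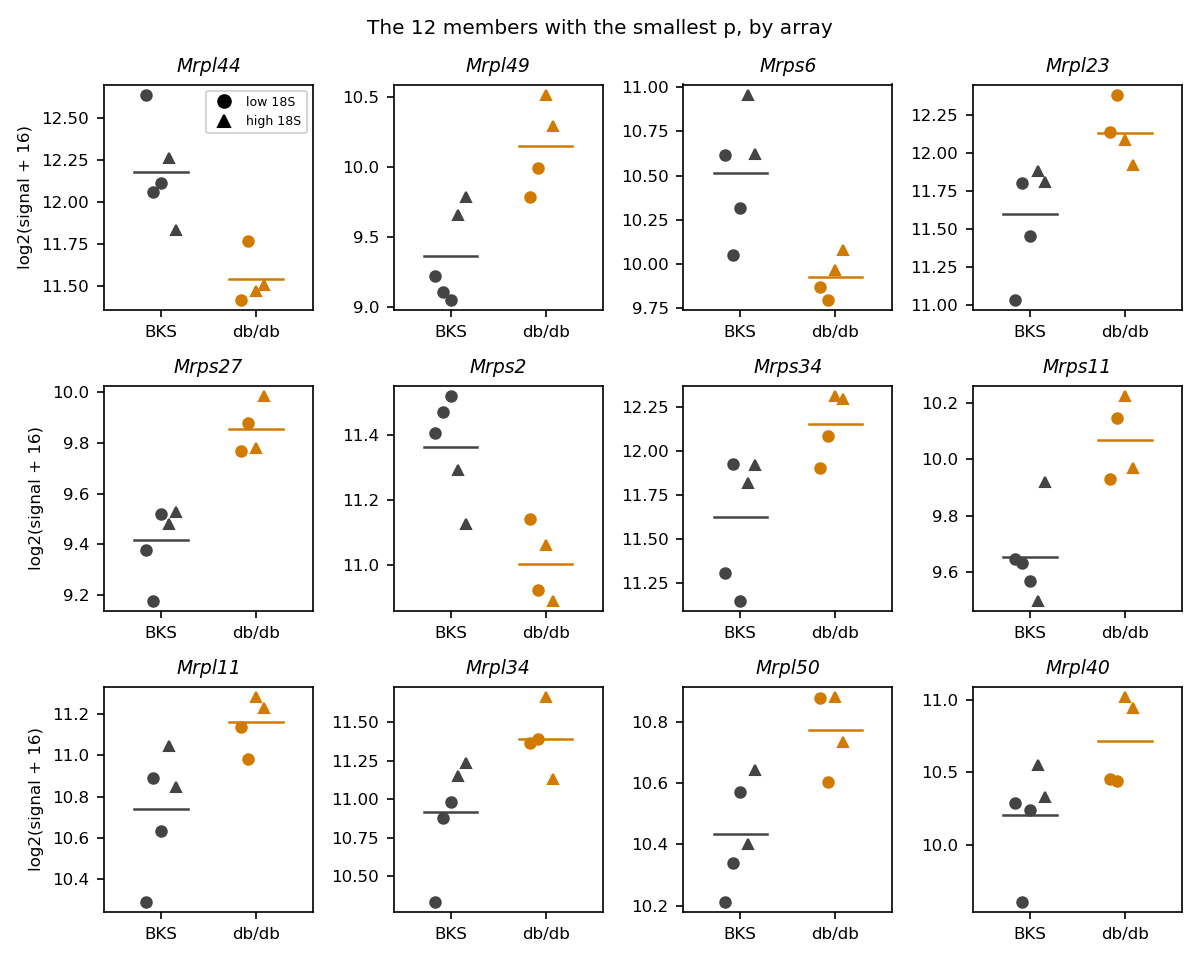
Log2 values on each of the 9 arrays for the 12 members with the smallest p-values, with group means as lines, circles for low 18S arrays and triangles for high ones. Mrpl44 lies lower on all 4 db/db arrays, Mrps27 and Mrpl23 lie higher on all 4, and the other panels show overlap or contact between groups except for Mrps11.

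The 3 Mrps18 paralogs share a bacterial ancestor but occupy different places, Mrps18a in the large subunit and Mrps18b and Mrps18c in the small one. Mrps18a read 10.87, 10.31, 10.70, 10.95 and 11 in BKS and 10.34, 10.19, 10.72 and 10.62 in db/db, a difference of -0.30 (SE 0.17, limma adjusted p = 0.389). Mrps18b read 11.55, 11.56, 11.33, 11.56 and 11.41 in BKS and 11.49, 11.72, 11.57 and 11.36 in db/db, a difference of 0.06 (SE 0.11, adjusted p = 0.860). Mrps18c read 11.18, 11.69, 11.43, 12.05 and 12.03 in BKS and 11.79, 11.75, 12.03 and 11.98 in db/db, a difference of 0.21 (SE 0.17, adjusted p = 0.595). All 3 overlapped between groups, and their intervals, from -0.66 to 0.06 for Mrps18a and from -0.16 to 0.58 for Mrps18c, also overlap. Mrps36, which despite its symbol is known as a subunit of the 2-oxoglutarate dehydrogenase complex, differed by 0.34 (SE 0.13, adjusted p = 0.188).

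Members of either ancestry had similar medians. The 30 measured proteins without a bacterial counterpart had a median of 0.10, and the 45 with one had a median of 0.12. Both calls were among the mitochondria-only proteins. The difference between the classes was not tested.

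The difference measured for a member often depended on which of its probe sets was read. Of the 76 members 34 had a single probe set and 42 had several. Among 32 members whose second brightest probe set also had a mean signal of at least 100, it shared the sign of the brightest in 12, and in 11 of the 32 the bright probe sets lay within 0.25 of each other. Some of the sign changes were between differences smaller than their SEs, such as -0.06 and 0.05 for Mrpl9 or -0.07 and 0.10 for Mrps14. The count of signs alone therefore says little about those members. Mrps15, which did not overlap between groups, differed by -0.20 by its brightest probe set and by 0.72 by the next. Mrpl38 showed -0.09, 0.86 and -0.04, and Mrpl21 showed 0.24, 0.03 and -1.26. The last value of each, with SEs of 0.44 for Mrpl38 and 0.47 for Mrpl21, came from a probe set with a mean signal under 100. Mrpl15 was the clearest case of accord in sign. Its 8 probe sets were all higher in db/db, by 0.14 to 0.84, and the brightest differed by 0.17. Of the 8, 6 had a mean signal of at least 100. The dimmest, at 0.14 and 0.23, had SEs of 0.55 and 0.52, so their signs carry little weight.

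When every one of the 34945 probe sets with a single symbol was tested as its own feature, 2 of the 156 member probe sets were called (1.28%), against 3.48% of all. One was the Mrpl44 probe set 1452144_a_at (-0.64, limma adjusted p = 0.0374 over probe sets). The other was the Mrpl15 probe set 1434971_x_at, which read 11.38, 11.69, 11.67, 11.39 and 11.50 in BKS and 12.19, 12.29, 12.68 and 12.30 in db/db. Its groups lay far apart, with a difference of 0.84 (adjusted p = 0.00255). The suffix x marks probes that may also bind other transcripts. The brightest Mrpl15 probe set, 1435232_x_at, and the dimmer 1430798_x_at carry it too. Mrpl49 had an adjusted p of 0.0567 in that fit.

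**Figure D4:**
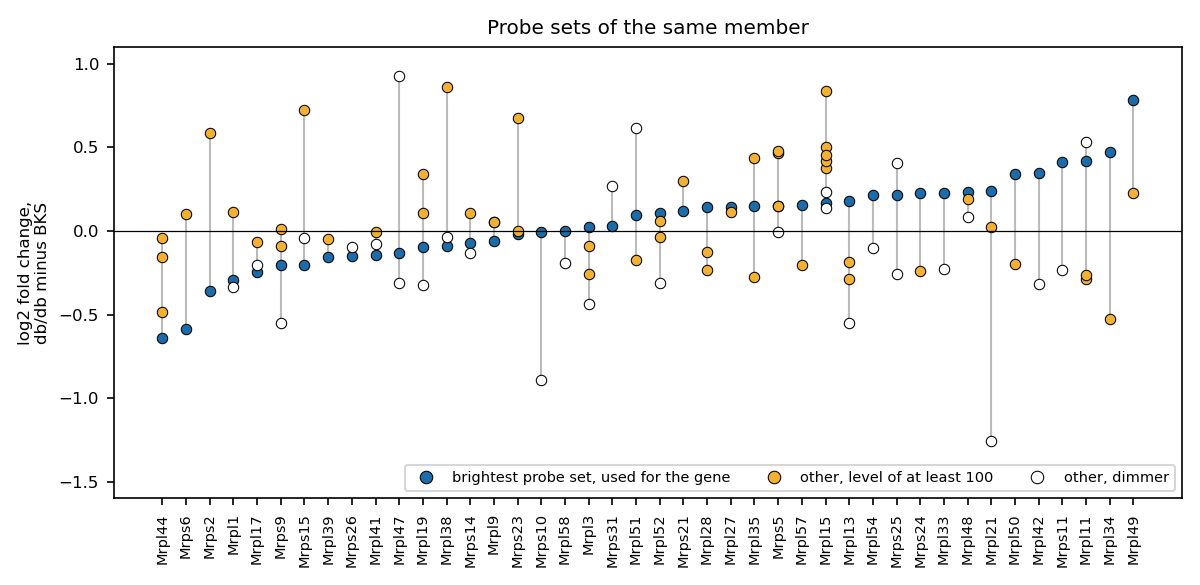
Difference between db/db and BKS liver (log2, vertical axis) for each probe set of the members with several probe sets, with the brightest probe set of each gene in blue, others with a mean signal of at least 100 in orange and dimmer ones in white. Probe sets of the same gene often lie on both sides of 0, whereas the 8 of Mrpl15 are all above it.

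In the fit with genotype and 18S set as terms, 8 of 76 members differed between high and low 18S arrays (10.5%), against 3.5% of all genes. Mrpl9 (0.74), Mrpl18 (0.68), Mrpl33 (0.64), Mrps10 (0.63), Mrpl49 (0.56), Mrpl12 (0.47) and Mrps7 (0.40) were higher on the high 18S arrays, and Mrpl28 was lower (-0.83). The Mrpl9 value came from its brightest probe set, and its other probe sets overlapped between the sets. The next brightest read 10.14 to 10.51 on the high 18S arrays and 9.94 to 10.36 on the low ones. The dimmest Mrpl9 probe set read 8.99 to 9.60 and 9.07 to 9.46. The other Mrpl49 probe set was also higher on the high 18S arrays, at 9.41 to 9.64 against 8.73 to 9.30. The second probe sets of Mrps10 and Mrpl33 had a mean signal under 100. That of Mrps10 went the other way, with 4.66 to 6.11 on the high 18S arrays and 5.14 to 8.03 on the low ones. That of Mrpl33 overlapped, with 6.05 to 7.10 and 5.56 to 6.94. Mrpl18, which binds the small RNA of ribosomes in bacteria, read 11.17, 10.99, 10.83 and 10.82 on the high 18S arrays BKS 4, BKS 5, db/db 3 and db/db 4. It read 9.90, 10.29, 10.53, 10.38 and 10.28 on the low ones, BKS 1 to 3 and db/db 1 and 2. These sets do not overlap, while the db/db and BKS means of Mrpl18 differed by 0.00 (SE 0.24). Mrpl28, a large-subunit protein of bacterial ancestry, read 11.01, 10.95, 11.12 and 10.96 on the high 18S arrays and 11.61, 12.26, 11.14, 11.80 and 12.28 on the low ones, again without overlap. That probe set carries the suffix x, for probes that may also bind other transcripts. The next Mrpl28 probe set, without this suffix, went the other way and overlapped, with 11.54, 11.57, 11.19 and 11.11 on the high 18S arrays and 11.17, 11.03, 11.37, 10.92 and 11.18 on the low ones. The median over members between the sets was 0.16, against 0.07 over all genes. The split was found from these data and its cause is not given in the labels.

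With the 18S split as a block 3 members were higher in db/db (Mrpl49, Mrps34 and Mrpl42) and 2 lower (Mrpl44 and Mrps6). That is 6.58% of the family, against 8.23% of all genes in the same fit. The median stayed at 0.11. Within the low 18S arrays, 3 BKS against 2 db/db, the median over members was 0.11 and that over all genes 0.02. Within the high 18S arrays, 2 against 2, they were 0.03 and -0.04. The difference had the same sign in both sets for 54 members (71.1%) and for 62.0% of all genes. The median deviation of the family from its own mean was -0.11, -0.12, -0.12, 0.09 and 0.08 on BKS 1 to 5 and 0.00, 0.01, 0.13 and 0.01 on db/db 1 to 4. BKS 1 to 3, all of them low 18S arrays, lay below the other 6, and the group means of -0.04 ± 0.11 (SD, n = 5) and 0.04 ± 0.06 (SD, n = 4) differed by less than the pooled SD of 0.09.

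**Figure D5:**
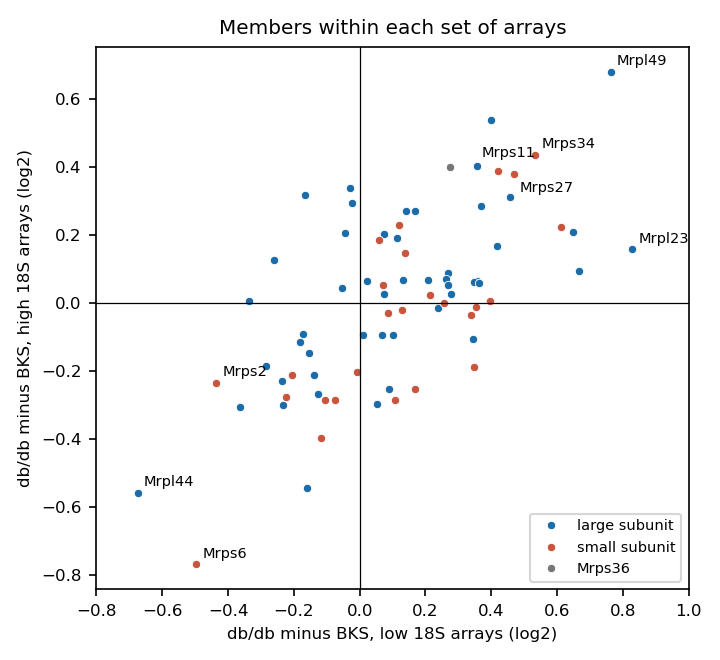
Difference between db/db and BKS liver within the low 18S arrays (log2, horizontal axis) against that within the high 18S arrays (log2, vertical axis), a point for each of the 76 members. Mrpl49 lies far in the positive corner, Mrpl44 and Mrps6 in the negative corner, and 54 members have the same sign on both axes.

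Other genes of mitochondrial translation, of mitochondrial DNA and of its transcription and copying, and transcription factors, were taken from lists, 82 measured genes in all. Of these Mettl15 rose and none fell, where 5.49% of all genes tested were called. The median was 0.03. An unadjusted p under 0.05 was reached by 9 of the 82, and by 17.6% of all genes. Mettl15, which methylates the RNA of the small mitochondrial subunit, read 8.82, 7.85, 8.57, 8.28 and 8.68 in BKS and 9.36, 9.0, 9.50 and 9.46 in db/db. No arrays overlapped, and the difference was 0.89 (SE 0.22) or 1.85-fold (limma adjusted p = 0.0332). Its other probe set, read alone, differed by 0.46 (adjusted p = 0.541), and the mean of both differed by 0.68 (adjusted p = 0.147). The call was lost without BKS 2 (adjusted p = 0.0532), BKS 3 (0.0562), BKS 4 (0.0712), db/db 1 (0.0848), db/db 3 (0.107) or db/db 4 (0.0904), with differences of 0.75 to 0.93. The 25 measured genes for ribosome assembly and RNA modification had a median of 0.08.

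The 4 ribosomal proteins with symbols outside the family had a median of 0.15 and no call. Dap3, a GTP-binding protein of the small subunit, differed by 0.33 (limma adjusted p = 0.391), and Gadd45gip1, of the large subunit, by -0.29 (adjusted p = 0.416). Of 13 translation factors and mRNA-handling proteins none was called. The elongation factor Gfm1 differed by 0.40 (adjusted p = 0.0621) and passed with the 18S block (adjusted p = 0.0405), but its other probe set differed by -0.02. Slirp, which binds mitochondrial mRNA, differed by -0.28 (adjusted p = 0.345). The 18 mitochondrial aminoacyl-tRNA synthetases had a median of 0.01, with Rars2 at -0.37 (adjusted p = 0.192) and Tars2 at 0.32 (adjusted p = 0.538).

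Of 12 genes that transcribe or copy mitochondrial DNA none was called and the median was -0.15. Polg2, the accessory subunit of the mitochondrial DNA polymerase, differed by 0.70 (limma adjusted p = 0.0534, and 0.0113 with the block). Primpol, a polymerase that can prime DNA synthesis anew, differed by -0.84 (adjusted p = 0.154). The only mitochondrially encoded gene read by a probe set of its own was ND5, a subunit of respiratory complex I, which differed by 0.07 (adjusted p = 0.866). Of 9 transcription factors and coactivators known for genes of mitochondria 2 were higher and 7 lower, none of them called. The coactivator Pprc1 differed by -0.69 (adjusted p = 0.0569) and its relative Ppargc1a by 0.71 (adjusted p = 0.0907). With the block Pprc1 fell (adjusted p = 0.0378) and Ppargc1a rose (adjusted p = 0.0377).

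Promoter sequences from RefSeq (GRCm38.p6), from 250 bases before to 50 after the start, were matched by symbol for 69 of the 78 members. They were searched on both strands for 4 motifs of factors known for genes of this kind. GCGCATGCG, a form of the NRF1 motif, was found in 7 members (10.1%), against 1.95% of 27025 promoters and 3.09% of the 14452 promoters of genes tested here. CCGGAAGT, bound by ETS factors such as GABPA, was found in 12 members (17.4%), against 6.62% of promoters of genes tested. AAGATGGCG, a form of the YY1 motif, was found in 8 members (11.6%), against 2.53%. GGGGCGGG, the SP1 motif, was found in 20 members (29.0%), against 28.8%. The first 3 motifs were thus more frequent among members than among tested genes and the SP1 motif was about as frequent. At least 1 of the first 3 was present in 26 members. The median GC content of the members' windows was 58.3%, against 58.7% for genes tested here.

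The 7 members with the NRF1 motif are printed as 60 bases around it, because this match separates a small set of the family. NRF1 is a transcription factor that controls many nuclear genes of the respiratory chain. Capitals mark the first match to the motif, on either strand, and each sequence is written along the strand of its gene. Overlapping matches on the opposite strand, at -86 in Mrpl32, -124 in Mrpl39 and -27 in Mrpl9, are not marked separately. A further Mrpl32 match, at -23, lies outside the printed window. The windows are chr11:97041422-97041481 (plus) for Mrpl10, chr7:105811088-105811147 (minus) for Mrpl17 and chr11:58171604-58171663 (plus) for Mrpl22. They are chr13:14613090-14613149 (minus) for Mrpl32, chr16:84735335-84735394 (minus) for Mrpl39, chr3:94443276-94443335 (plus) for Mrpl9 and chr17:35916630-35916689 (minus) for Mrps18b.
Mrpl10: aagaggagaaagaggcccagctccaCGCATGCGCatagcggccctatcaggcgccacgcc
Mrpl17: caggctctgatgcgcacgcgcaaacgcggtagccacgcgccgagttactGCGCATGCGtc
Mrpl22: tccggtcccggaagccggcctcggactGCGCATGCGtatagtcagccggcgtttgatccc
Mrpl32: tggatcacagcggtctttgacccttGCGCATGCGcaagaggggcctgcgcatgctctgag
Mrpl39: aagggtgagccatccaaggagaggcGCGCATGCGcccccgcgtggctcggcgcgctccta
Mrpl9: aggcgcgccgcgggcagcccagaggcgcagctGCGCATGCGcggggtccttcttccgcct
Mrps18b: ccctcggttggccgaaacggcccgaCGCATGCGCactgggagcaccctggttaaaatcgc

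None of these 7 genes was called. Mrpl10 (0.09) and Mrps18b (0.06) had positive differences. Mrpl17 (-0.24), Mrpl39 (-0.16), Mrpl32 (-0.15), Mrpl22 (-0.13) and Mrpl9 (-0.06) had negative ones. Their median was -0.13, and that of the 60 tested members whose windows lack these letters was 0.13. The 8 members with the YY1 motif had 7 positive differences and 1 negative, with a median of 0.28 against 0.09 for the rest. Of all tested members 63.2% were positive. The 12 with the ETS motif had a median of 0.12 against 0.10. The 20 with the SP1 motif had 15 positive differences and 5 negative, with a median of 0.17 against 0.09. These differences between members with and without a motif were not tested. A match describes these letters only, and whether the factors bind there was not measured.

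Many members share a promoter region with a neighbour. A gene on the opposite strand started within 1000 bases upstream for 26 of the 69 members (37.7%), against 16.3% of genes tested here. Of the 24 pairs with both genes tested 12 had differences of the same sign, and no partner was called. Mrpl49 starts 192 bases from Fau, which encodes a ubiquitin-like protein joined to a protein of the cytosolic ribosome, and Fau differed by 0.39 (SE 0.17, limma adjusted p = 0.245). Mrpl46 and Mrps11 are themselves such a pair, 42 bases apart, with differences of -0.01 and 0.41. Mrpl43 pairs with Twnk, the helicase of mitochondrial DNA (0.20 and -0.18). Mrps12 pairs with Sars2, the mitochondrial seryl-tRNA synthetase (-0.21 and 0.31). Mrpl40 pairs with Hira, a histone chaperone (0.51 and -0.16).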

How the data were processed

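Total RNA of 9 liver samples was labelled with biotin and hybridised to 1-colour Affymetrix arrays, per the labels' protocols. The deposited values are 1 linear intensity per probe set and array. Which software and scaling the authors applied is not given in the sources used here. The deposited intensity values had been brought to a common level, since their mean without the outer 2% at either end was 500 on all arrays. Groups were taken from the labels (5 BKS, 4 db/db). Intensities were transformed as log2(value + 16), which compresses changes of dim genes, and the arrays were put on a common distribution by quantile normalization (limma 3.58.1, R 4.3.3).

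Of 45101 probe sets 34945 carried 1 gene symbol. Each gene was read by its brightest such probe set over all arrays, and the same probe set was kept in other settings unless the setting concerned it. Genes were tested with lmFit and eBayes with an intensity trend, group as the only term, two-sided, with Benjamini-Hochberg adjustment over 18193 genes and a threshold of 0.05. There was no filter on dim genes. Precision is limited by how few arrays there are. The steps were tested on simulated data.

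Members and lists were chosen with earlier results of these data known. Per-array values were given for called members, the members with the smallest p up to 12, and the Mrps18 paralogs, and other members were named by difference. Genes of the other lists were named by smallest adjusted p, up to 3 called or 2 uncalled. Mrps15, Mrpl38, Mrpl21, Mrpl15, the promoter partners and the members that differ between 18S sets were singled out after their values were seen. Other settings were median centring, deposited scaling, pseudocounts of 1 and 64, filters, probe set rules, eBayes options, array weights, the 18S split, the replicate number as a block and leaving out each array. Equal numbers were not taken as pairs, since the deviations of equally numbered arrays correlated at 0.03, 0.17, -0.07 and 0.13. Promoters came from RefSeq, whose build is that table's and not the array's.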

Additional observations from a re-analysis of the deposited data

Results flagged for a closer look

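In 176 groups of arrays (each of the 76 members and 12 other named genes, in BKS and in db/db) the highest or lowest array was compared with the spread of its group, and 3 groups (1.70%) held an array far from the others. Chance gives about 1 in 20. Mrpl20, a large-subunit protein of bacterial ancestry, read 11.48 on BKS 1, above the 10.82 to 10.96 of the other BKS arrays. Gadd45gip1 read 11.41 on db/db 4, above 11.14 to 11.18. Pprc1 read 8.32 on db/db 4, below 8.61 to 8.65. None of these genes passed the test without the 18S block.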

How the results depend on the processing

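The counts of called members, 1 higher and 1 lower, moved with many choices. Both counts were 0 with median centring, the mean of all probe sets, the probe set with the largest variance, eBayes without a trend, the low 18S arrays alone and the high 18S arrays alone. The lower count was 0 with the brightest plain probe set and 2 with the deposited scaling. Among genes at or above the median level the counts were 2 and 2, and with the 18S block 3 and 2. With every probe set as a feature, an alternative chosen after seeing the data, the higher count over each gene's brightest probe set was 0, while a dimmer Mrpl15 probe set was called higher. Leaving out each array in turn gave 0 to 1 higher and 0 to 2 lower. The median over members, 0.11, was 0.21 with median centring, where all genes had a median of 0.04, and 0.08 to 0.14 with an array left out. It was positive in each setting run, the lowest value being 0.03 on the high 18S arrays alone. With the replicate number as a block over 8 arrays, without BKS 5, the counts were 1 and 1 and the median 0.10. Leaving out BKS 5 alone gave the same median, because a block of complete pairs cannot change a difference between group means. That median therefore says nothing about pairing. Of 1976 values of single members under 26 settings, 1824 kept their sign and side of the threshold, 24 lost a call, 7 gained one and 121 changed sign without a call. The sign never changed for 35 of 76 members. The eBayes options, level filters and every probe set as a feature kept each member's difference, so no sign and no median could change there. Probe set rules could not move the 34 members with a single probe set. The causes of the shifts between settings were not tested.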
